A study of Mus musculus with 8 samples.

Results

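The 32 genes described here encode titin, nebulin and the proteins of the Z-disc and costamere in gastrocnemius muscle, and they were chosen by name as a structural group. Each was represented by the transcript cluster annotated to its symbol alone, with the highest mean over the arrays where a gene had several, and all 32 were found among 19938 genes with a single symbol. No filter on low values was applied, so all 32 entered the test. Expression was measured on 8 Affymetrix arrays, 1 per mouse, as log2 values in which 1 unit is a doubling. The knockout group held 4 males that carried the HSAcre transgene (Tg/0) and were Gcn5 L2/L2, the floxed gene, labelled Gcn5skm-/-. The wild-type group held 4 males, also Gcn5 L2/L2 but without Cre (0/0), labelled Gcn5skm+/+. Both groups therefore carried the floxed alleles, were 6 months old, ate chow and were fasted for 5 h. HSA is the human skeletal actin promoter, which drives Cre in muscle fibres, so other cells of the muscle keep the gene. Since Cre was present in knockouts alone, effects of Cre and of the deletion cannot be told apart.

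Kat2a, the gene for Gcn5, an acetyltransferase of transcriptional coactivator complexes, served as the check of the labels. It measured 6.50, 6.46, 6.45 and 6.43 in wild types 1 to 4 and 5.81, 5.84, 5.79 and 5.73 in knockouts 1 to 4 (limma adjusted p = 0.0319). Its difference lay between -0.68 and -0.64 in all 20 alternatives, while its adjusted p ran from 0.00916 to 0.137. That p was above 0.05 without wild type 3, wild type 4 or any single knockout, as well as in 3 other settings. Markers of muscle fibres had a mean of 11.80 to 12.04 in every array, and 6 cardiac markers had a mean of 4.80 to 5.07. In whole muscle, fewer cells of a type and less RNA per cell cannot be told apart.

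The Z-disc is the plate at each end of a sarcomere in which actin filaments of neighbouring sarcomeres are cross-linked by alpha-actinin. Titin runs from the Z-disc to the middle of the sarcomere and acts as its spring, and nebulin lines the actin filament. Costameres lie over the Z-discs at the fibre's membrane, where vinculin, talin and integrin-linked kinase couple them to integrins and so to the extracellular matrix, while desmin filaments and plectin tie neighbouring Z-discs to each other.

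Upstream sequences are shown for the members that the values below turn on and for those with a CArG box, the binding motif of serum response factor, a regulator of many muscle and adhesion genes. RefSeq promoters (GRCm38.p6) matched 22 of the 32 members, with 33 starts in all; Neb, Myot, Myoz1, Myoz3, Tcap, Nexn, Trim55, Plec, Tln2 and Parva are not described at the sequence level. The 250 bases before each start were searched on both strands for the CArG box and for the MEF2 motif, the site of another muscle transcription factor; these motifs did not overlap in any member's window. Vcl has its CArG box in chr14:20929148-20929397 (plus strand), Fhl1 in chrX:56779433-56779682 (plus), and Ldb3 in chr14:34588608-34588857 (minus), whereas the Des window, chr1:75360042-75360291 (plus), matched neither motif. Capitals mark the CArG box.
Vcl: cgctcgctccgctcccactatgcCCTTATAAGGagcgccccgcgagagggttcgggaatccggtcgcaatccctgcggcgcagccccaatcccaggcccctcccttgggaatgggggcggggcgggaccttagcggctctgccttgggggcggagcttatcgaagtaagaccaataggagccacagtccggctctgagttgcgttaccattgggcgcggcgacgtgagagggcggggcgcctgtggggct
Fhl1: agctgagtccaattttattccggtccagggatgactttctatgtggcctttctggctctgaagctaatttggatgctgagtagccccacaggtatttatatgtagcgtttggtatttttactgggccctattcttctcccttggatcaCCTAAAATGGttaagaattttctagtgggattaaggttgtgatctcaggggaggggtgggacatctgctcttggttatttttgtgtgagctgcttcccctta
Ldb3: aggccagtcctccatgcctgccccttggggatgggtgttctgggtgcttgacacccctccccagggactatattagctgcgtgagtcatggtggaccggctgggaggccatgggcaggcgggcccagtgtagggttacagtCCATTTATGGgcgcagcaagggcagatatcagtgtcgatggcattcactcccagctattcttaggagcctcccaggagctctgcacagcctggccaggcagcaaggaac
Des: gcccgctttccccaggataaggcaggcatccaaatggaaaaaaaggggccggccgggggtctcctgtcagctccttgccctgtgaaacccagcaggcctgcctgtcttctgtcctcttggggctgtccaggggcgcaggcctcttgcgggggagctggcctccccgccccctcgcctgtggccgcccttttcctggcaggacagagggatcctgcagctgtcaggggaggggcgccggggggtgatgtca
The match was CCTTATAAGG in Vcl, 227 to 218 bases before the start, CCTAAAATGG in Fhl1, 102 to 93 bases before it, and CCATTTATGG in Ldb3, 109 to 100 bases before it. A second Ldb3 start lies close by, and its window shares the same match. A CArG box was present in 1.47% of all 32851 promoter windows of this length and in 4 of the members' 33. The MEF2 motif was present in 2.92% of all windows and in 5 of the members' 33, in windows of Ttn, Synpo2, Synpo2l and Lims1. Of the CArG-box genes, Vcl differed by -0.26 log2 units between genotypes, Fhl1 by -0.45 and Ldb3 by -0.05, and the motif matches are a description of the letters only.

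None of the 32 members passed a 5% false discovery rate between genotypes: 0 passed in limma with Benjamini-Hochberg adjustment over all genes, against 0.0150% of all genes (3 of 19938). Vcl, which encodes vinculin, had the smallest limma adjusted p of the group, 0.742. At a 10% false discovery rate 0 members passed, against 0.0802% of genes. At an unadjusted p under 0.05, 1 member was lower (Vcl; 3.12% of members against 3.39% of all genes) and 0 were higher (2.34% of all genes). Groups did not overlap for 2 members, Vcl and Des, both lower in knockout (6.25% of members against 2.14% of all genes). Higher without overlap were 0 members, against 1.48% of all genes. These shares rest on 1 or 2 genes, too few to set the members apart from the rest of the array.

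Differences were small and tightly bounded for most members. Differences are knockout minus wild type throughout. They ran from -0.45 (Fhl1) to 0.11 (Pdlim7), with a median of -0.03 against -0.01 over all genes, and 21 of 32 members differed by less than 0.1 in size. The difference was below 0 for 22 members and above 0 for 10, and 54.7% of all genes were below 0. The 95% interval of the fit lay within a 1.25-fold change in either direction for 24 members, against 10294 of all 19938 genes. The other 8, Actn2, Flnc, Pdlim7, Synpo2l, Fhl1, Fhl3, Vcl and Lims1, had intervals that reached past that bound, so a change of that size cannot be dismissed for them.

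**Figure D1:**
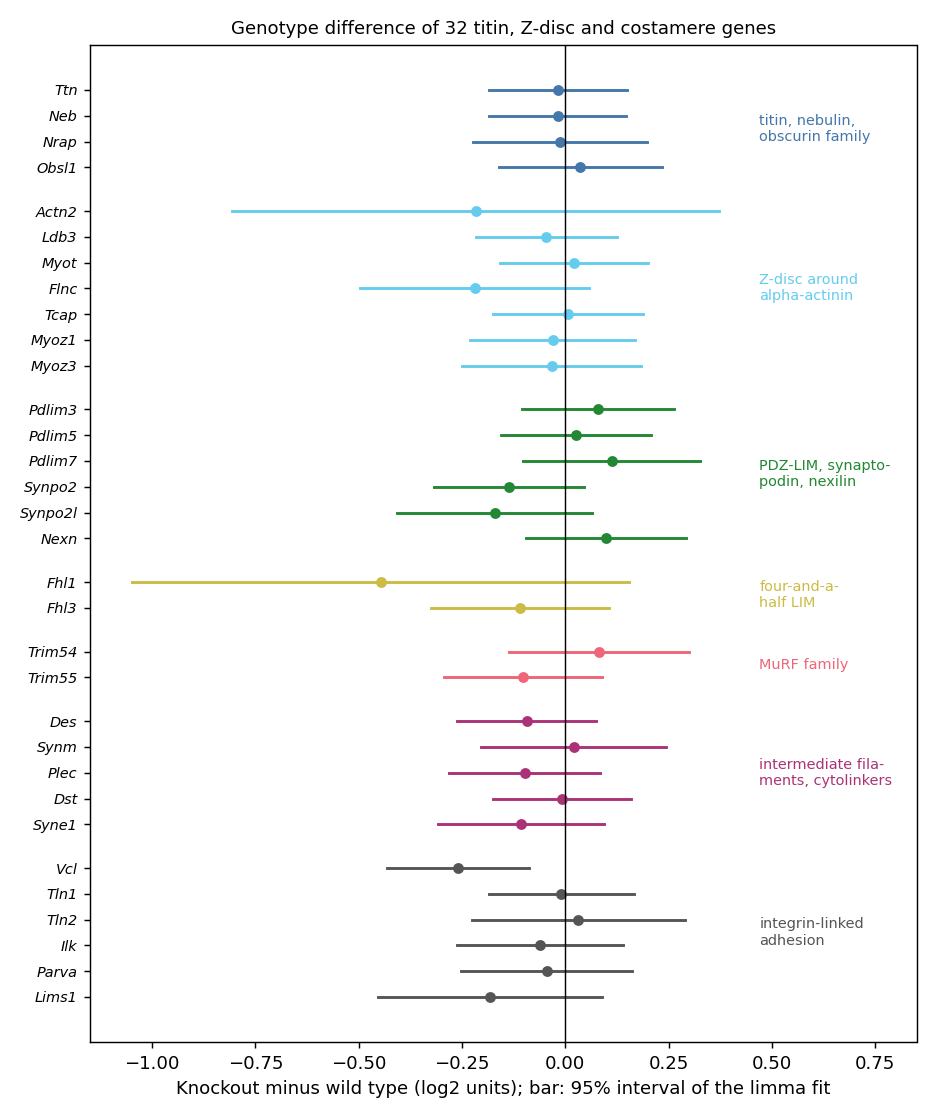
Knockout minus wild type in log2 units for each of the 32 members, grouped by role; points are the fitted differences and bars their 95% intervals (limma, n = 4 arrays per group). The interval excludes 0 for Vcl alone (-0.43 to -0.09), and those of Actn2 and Fhl1 are the widest.

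The giant scaffolds of the sarcomere were nearly the same in every animal. Ttn, the gene of titin, measured 12.19, 12.28, 12.18 and 12.20 in wild types and 12.21, 12.17, 12.18 and 12.22 in knockouts. The groups overlapped, with a difference of -0.02 (95% interval -0.19 to 0.15, limma adjusted p = 0.983). Neb, the gene of nebulin, measured 12.29, 12.36, 12.30 and 12.32 in wild types and 12.32, 12.26, 12.28 and 12.32 in knockouts. Its groups also overlapped (difference -0.02, 95% interval -0.18 to 0.15). Both sit near the top of the deposited scale, whose highest value was 13.2, and whether array signal is compressed there was not tested. Nrap, a nebulin-related anchoring protein of myofibril assembly, differed by -0.01. Its spread was wider among knockouts (SD 0.18, 10.73 to 11.10) than among wild types (SD 0.01, 10.87 to 10.89), a contrast that was not tested. Obsl1, which encodes an obscurin-like cytoskeletal adaptor, differed by 0.04.

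Z-disc proteins around alpha-actinin included 5 that hardly differed and 2 that varied between animals. Myot, the gene of the actin cross-linker myotilin, measured 11.75, 11.76, 11.87 and 11.82 in wild types and 11.79, 11.82, 11.93 and 11.74 in knockouts. Knockout 3 was highest and knockout 4 lowest, so the groups overlapped (difference 0.02, 95% interval -0.16 to 0.20). Ldb3, which encodes the alpha-actinin-binding PDZ-LIM protein ZASP, differed by -0.05, and Tcap, the gene of the titin cap telethonin, by 0.00602. Myoz1 and Myoz3, which encode calsarcins that link alpha-actinin to the phosphatase calcineurin, each differed by -0.03. The 95% intervals of these 5 genes all lay between -0.25 and 0.20.

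Actn2, the gene of alpha-actinin-2, measured 10.54, 10.95, 11.36 and 11.28 in wild types and 10.49, 11.35, 11.36 and 10.07 in knockouts. Knockout 4 was lowest, followed by knockout 1 and wild type 1, and knockouts 2 and 3 matched the highest wild types. The 8 animals spanned 1.29 log2 units, a 2.45-fold range, against a genotype difference of -0.22 (SE 0.27, limma adjusted p = 0.935). Without knockout 4 the difference was 0.03, and without knockout 3 it was -0.40. Flnc, the gene of the actin cross-linker filamin C, measured 9.95, 10.06, 10.32 and 10.22 in wild types and 9.72, 10.16, 10.09 and 9.70 in knockouts. Knockouts 4 and 1 were again the lowest, and knockouts 2 and 3 lay within the wild-type range (difference -0.22, SE 0.13, limma adjusted p = 0.876).

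Genes of actin-associated PDZ-LIM proteins, synaptopodins and nexilin went both ways by small amounts. Pdlim3, whose product (ALP) binds alpha-actinin at the Z-disc, measured 11.19, 11.10, 11.16 and 11.06 in wild types and 11.25, 11.18, 11.08 and 11.30 in knockouts. Knockout 4 was highest and wild type 4 lowest, with overlap between the groups (difference 0.08, 95% interval -0.10 to 0.26). Its relatives Pdlim5 and Pdlim7 differed by 0.03 and 0.11, and Nexn, the gene of the actin-binding protein nexilin, by 0.10. Synpo2, which encodes the Z-disc protein myopodin, measured 6.06 to 6.27 in wild types and 5.99 to 6.12 in knockouts (difference -0.14). Synpo2l, a related gene, measured 8.59 to 9.01 in wild types and 8.46 to 8.76 in knockouts (difference -0.17). Both overlapped between groups, and the limma adjusted p was 0.876 for each.

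In the FHL family of LIM-only proteins, Fhl1 had the widest difference of the 32 members and also the widest spread. Fhl1 encodes a LIM protein of the sarcomere that takes part in load sensing. It measured 10.85, 11.46, 11.48 and 11.48 in wild types and 10.45, 11.54, 11.37 and 10.12 in knockouts. Knockouts 1 and 4 lay below every wild type, while knockout 2 was the highest of all 8 animals and knockout 3 lay within the wild-type range. Knockouts were at 73.4% of the wild-type mean, a difference of -0.45 (SE 0.28) with a limma adjusted p of 0.876. It was -0.20 without knockout 4, -0.67 without knockout 2 and -0.60 without wild type 1. Fhl3, a related LIM protein gene, measured 10.06 to 10.38 in wild types and 9.92 to 10.19 in knockouts (difference -0.11).

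MuRF-family genes encode ring finger proteins that bind titin and microtubules. Trim54 (MuRF3) measured 8.77, 8.64, 8.46 and 8.45 in wild types and 8.81, 8.61, 8.55 and 8.68 in knockouts. The animals with number 1 were the highest in each genotype, and the groups overlapped (difference 0.08). Trim55 (MuRF2) differed by -0.10, with a 95% interval of -0.29 to 0.09.

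Intermediate filament and cytolinker genes were close between genotypes. Des, the gene of desmin, measured 11.85, 11.87, 11.85 and 11.91 in wild types and 11.82, 11.80, 11.77 and 11.72 in knockouts. Each knockout was below each wild type, by a gap of 0.03 between the nearest animals. The difference of -0.09 (SE 0.08) corresponds to 93.7% of the wild-type level and did not pass (limma adjusted p = 0.904). The fit borrows its error from all genes, and that error was larger than the spread of Des itself (SD 0.03 in wild type and 0.04 in knockout). Synm, which encodes synemin, a partner of desmin, differed by 0.02. Plec, the gene of the cytolinker plectin, differed by -0.10, and Dst, the gene of the related cytolinker dystonin, by -0.00773. Syne1 encodes nesprin-1, which anchors nuclei to the cytoskeleton. Its differences were -0.11 and -0.06 in its 2 transcript clusters, the first of which was the brighter and the one used.

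**Figure D2:**
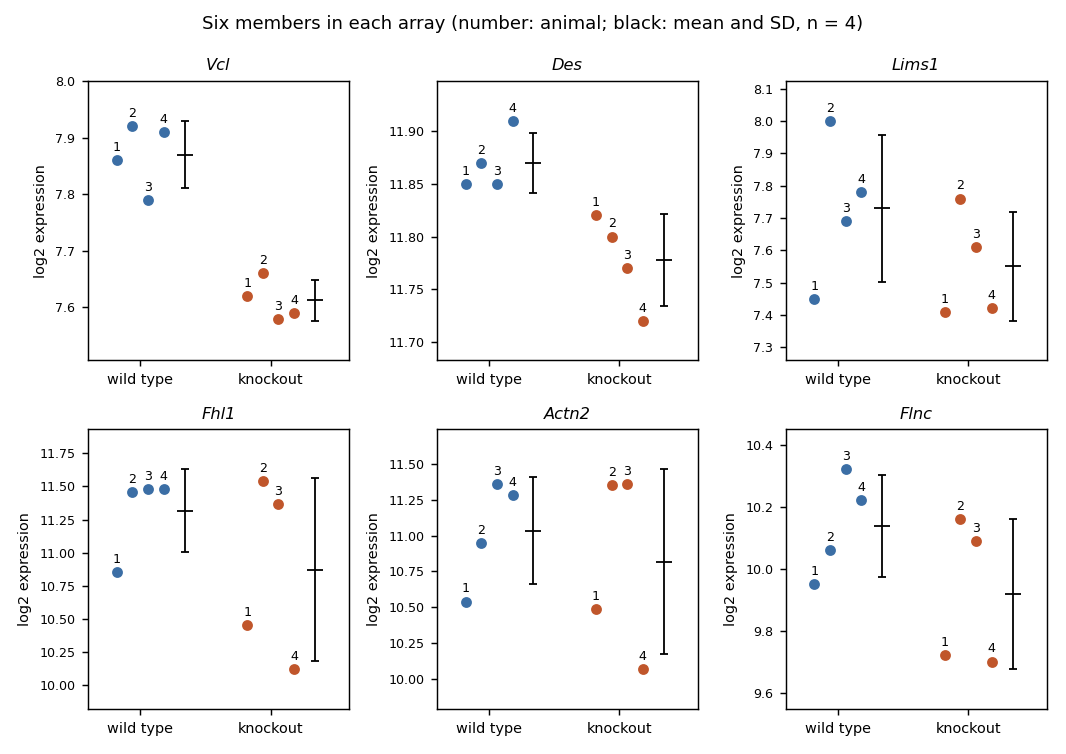
Log2 expression of 6 members in each of the 8 arrays; numbers are the animal numbers within each genotype, and black bars give the mean and SD (n = 4). Vcl and Des do not overlap between genotypes, while Fhl1, Actn2 and Flnc are lowest in knockouts 1 and 4, with wild type 1 lowest among wild types.

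Among the integrin-linked adhesion genes of the costamere, Vcl, the gene of vinculin, had the smallest p. Vcl measured 7.86, 7.92, 7.79 and 7.91 in wild types and 7.62, 7.66, 7.58 and 7.59 in knockouts. Each knockout was below each wild type, with 0.13 log2 units between the nearest animals. The means were 7.87 ± 0.06 and 7.61 ± 0.04 (SD, n = 4 each), a difference of -0.26 (SE 0.08, 95% interval -0.43 to -0.09), or 83.5% of the wild-type level. The limma p was 0.00626 before adjustment and 0.742 after it, and Vcl ranked 168 of 19938 genes by p. As the 1 member lower at an unadjusted p under 0.05 (3.12% of members), it is near the share over all genes (3.39%). Vcl stayed lower at an unadjusted p under 0.05 in all 20 alternatives (differences from -0.29 to -0.21), and its adjusted p stayed between 0.441 and 0.997. The alternatives reuse the same arrays by whose p Vcl was picked, so they add no separate evidence for a difference. Vinculin is also made in smooth muscle and other cells. Of the 12 smooth muscle and pericyte markers 4 were higher in knockout, and their mean was 6.62 to 7.06 in wild types and 6.68 to 6.86 in knockouts; their part in the Vcl difference was not tested.

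Talin links integrins to actin and binds vinculin, and both talin genes were close between genotypes. Tln1 measured 7.56 to 7.68 in wild types and 7.56 to 7.72 in knockouts (difference -0.00945, 95% interval -0.19 to 0.17). Tln2, the talin typical of striated muscle, differed by 0.03 (95% interval -0.23 to 0.29) and had its lowest value, 7.10, in wild type 3. Integrin-linked kinase, alpha-parvin and PINCH1 form a complex at integrin tails, encoded by Ilk, Parva and Lims1. Ilk differed by -0.06 and Parva by -0.05. Lims1 measured 7.45, 8.0, 7.69 and 7.78 in wild types and 7.41, 7.76, 7.61 and 7.42 in knockouts. Wild type 2 was highest and wild type 1 lay beside the lowest knockouts, so the groups overlapped (difference -0.18, SE 0.12, limma adjusted p = 0.877). The Lims1 difference was -0.09 without wild type 2 and -0.28 without wild type 1.

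The spread among animals was narrower for the members than for most genes. Their median within-group SD was 0.106, against 0.150 over all genes, and 26 of the 32 members lay below that all-gene median. For 15 members all 8 animals fell within 0.3 log2 units. The 6 above it were Actn2 and Fhl1, with within-group SDs of 0.53 and 0.54, and Flnc, Lims1, Tln2 and Synpo2l, with SDs of 0.16 to 0.21. No p is attached to these values, since members were chosen by name with earlier results of these arrays known. The members were also bright, with a mean of 9.27 to 9.34 in wild types and 9.20 to 9.32 in knockouts. Array medians over all transcript clusters were 4.61 to 4.72, and whether the narrower spread goes with the higher level was not tested.

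**Figure D3:**
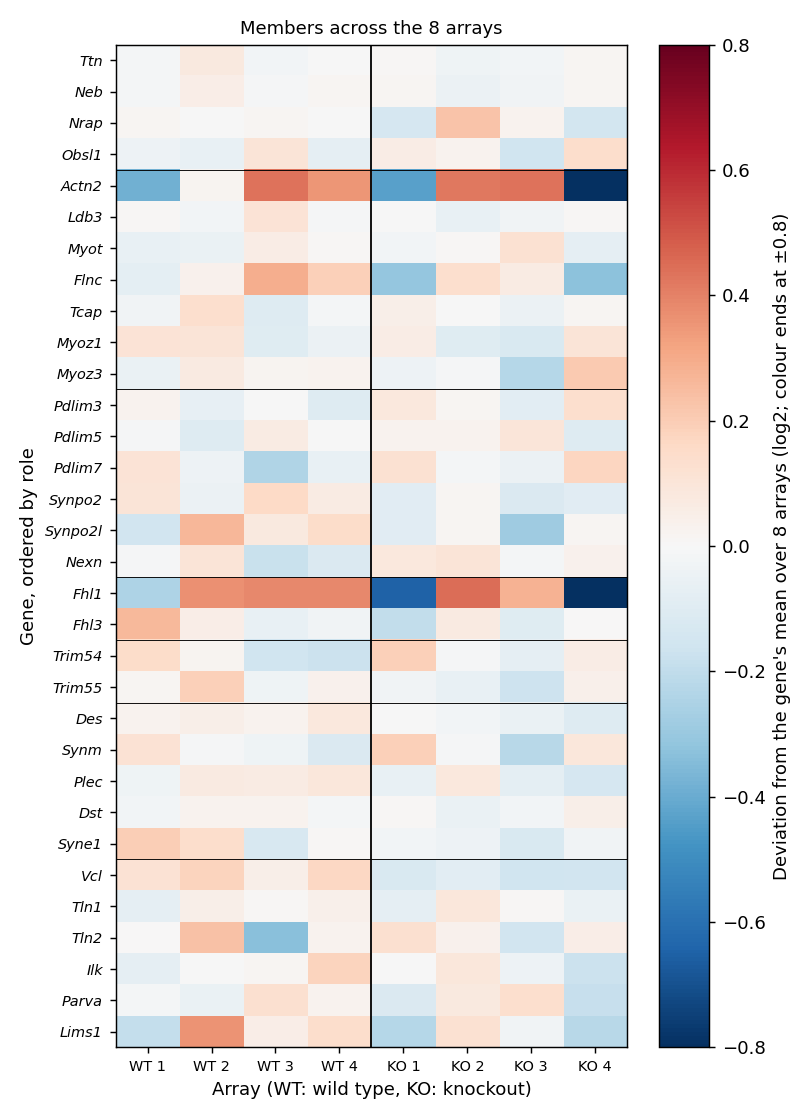
Deviation of each member from its own mean over the 8 arrays, in log2 units, with genes in rows ordered by role and arrays in columns (wild types left, knockouts right). Most rows are pale, and the strongest colours belong to Actn2 and Fhl1. In these 2 genes and, less strongly, in Flnc, knockouts 1 and 4 and wild type 1 lie below the gene's mean. Lims1 in wild type 2 (high) and Tln2 in wild type 3 (low) deviate about as far as Flnc does.

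The arrays in which Actn2, Fhl1 and Flnc were low were also low for several other structural genes. These genes were picked after their values had been seen, as a description. Not every structural gene followed them: the members Obsl1, Myoz3, Pdlim3, Pdlim7 and Dst were highest in knockout 4. Mypn, outside the members, was lowest in knockout 3. Csrp3, the gene of muscle LIM protein, measured 6.62, 7.52, 7.91 and 7.70 in wild types and 5.91, 7.60, 7.70 and 5.30 in knockouts. Myoz2, the calsarcin of slow fibres and one of the slow-fibre markers below, measured 7.80, 9.08, 8.81 and 9.29 in wild types and 7.90, 9.36, 9.50 and 5.86 in knockouts. Ankrd2, a stretch-responsive ankyrin repeat protein, measured 7.89, 8.85, 8.99 and 9.53 in wild types and 7.94, 9.05, 9.42 and 6.69 in knockouts. In each of these 3 genes knockout 4 was lowest, wild type 1 and knockout 1 came next, and knockouts 2 and 3 reached the level of the higher wild types. Myom3, an M-band gene, and Pdlim1 had the same lowest array, at 5.67 and 7.19. Myh2, the myosin heavy chain of type IIA fibres, measured 10.49, 10.93, 11.38 and 11.29 in wild types and 10.12, 11.52, 11.46 and 9.03 in knockouts, with the same 3 animals lowest. Myh4, the myosin of type IIB fibres, measured 12.18 to 12.29 in wild types and 12.22 to 12.28 in knockouts.

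Slow-fibre markers followed this order only in part. The mean of 11 markers was 6.30, 8.01, 6.49 and 7.88 in wild types and 7.14, 8.19, 8.55 and 5.50 in knockouts. Knockout 4 was again lowest, but wild type 3 was low here although its Actn2 and Fhl1 values were among the highest. Of the 11 markers 8 were higher in knockout. With the slow-fibre level as a covariate the Fhl1 difference was -0.52, against -0.45 without it. The limma p of Fhl1 was 0.00935 before and 0.647 after adjustment with the covariate, against 0.132 and 0.876 without it. Macrophage markers (12 genes, 10 higher in knockout) had a mean of 5.39 to 5.50 in wild types and 5.54 to 6.18 in knockouts, highest in knockout 4; their part in the values of Actn2, Fhl1 and Flnc was not tested.

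**Figure D4:**
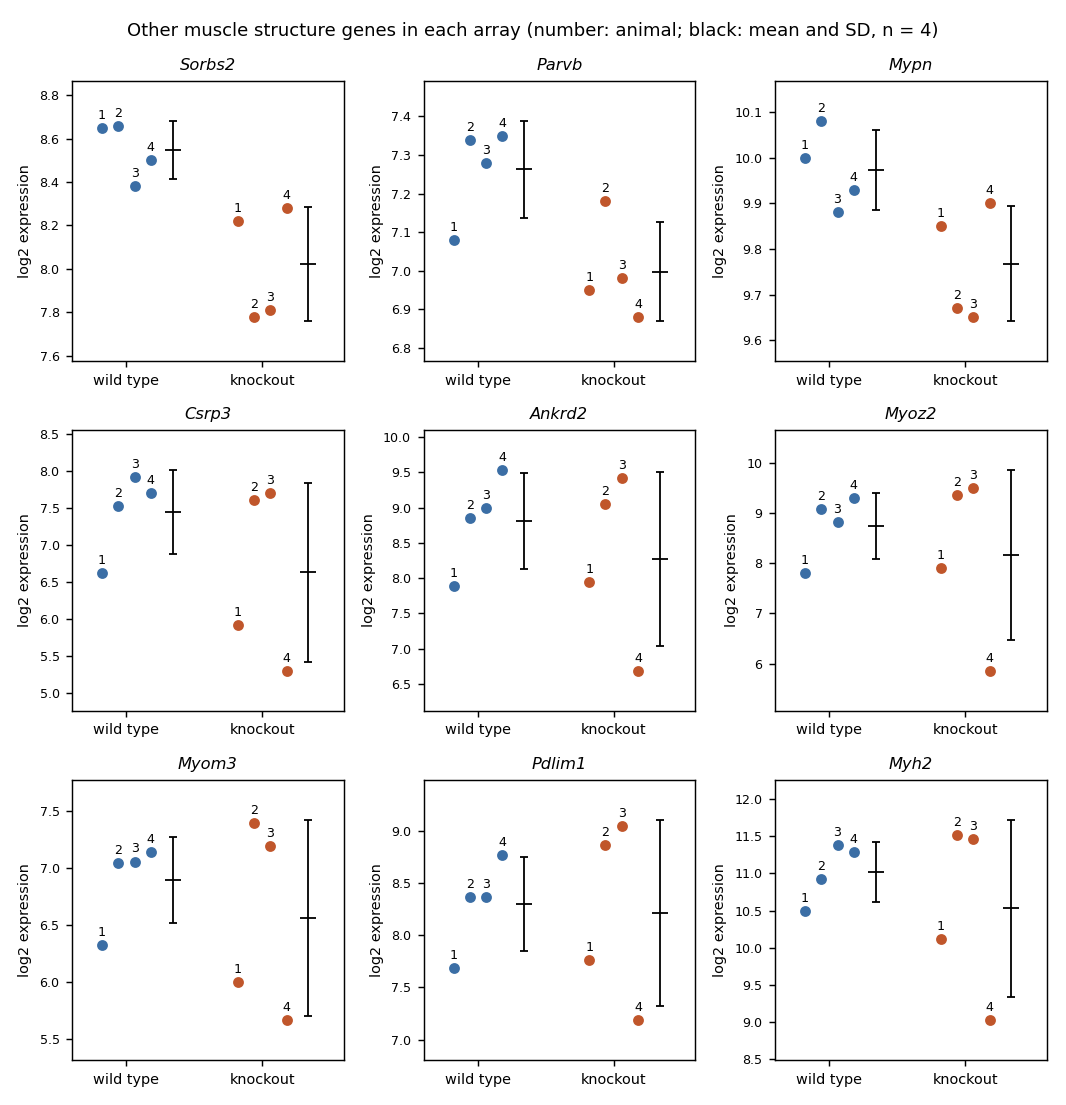
Log2 expression of 9 other muscle structure genes in each of the 8 arrays; numbers are the animal numbers within each genotype, and black bars give the mean and SD (n = 4). Sorbs2 does not overlap between genotypes, while Csrp3, Ankrd2, Myoz2, Myom3, Pdlim1 and Myh2 are lowest in knockout 4.

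Other genes of the same structures were also without a call after adjustment, but their differences and spread were larger than those of the members. Of 64 further Z-disc, M-band, costamere, cytolinker and nuclear envelope genes, 60 were measured, 42 were lower and 18 higher in knockout, and 0 passed a 5% false discovery rate in limma. At an unadjusted p under 0.05, 5 were lower (8.33%, against 3.39% of all genes) and 0 higher (against 2.34%). That count of 5 ran from 2 to 7 over the 20 alternatives, with 2 when all clusters were tested or without wild type 4 or knockout 4. The median difference was -0.09, against -0.03 for the members and -0.01 for all genes. The median within-group SD was 0.155, against 0.106 for the members. The 95% interval lay within a 1.25-fold change for 26 of the 60 genes, against 10294 of all 19938 genes. The difference between these lists and the members was not tested. Sorbs2, which encodes the Z-disc and adhesion adaptor ArgBP2, a vinculin-binding protein, had the smallest p. It measured 8.65, 8.66, 8.38 and 8.50 in wild types and 8.22, 7.78, 7.81 and 8.28 in knockouts. Each knockout was below each wild type (difference -0.53, SE 0.13, 69.5% of the wild-type level, limma adjusted p = 0.444). Of the 60 genes 1, Sorbs2, was lower without overlap and 0 were higher, against 2.14% and 1.48% of all genes. Parvb, the gene of beta-parvin, a partner of integrin-linked kinase, measured 7.08, 7.34, 7.28 and 7.35 in wild types and 6.95, 7.18, 6.98 and 6.88 in knockouts. Knockout 2 lay above wild type 1, so the groups overlapped (difference -0.26, SE 0.10, limma adjusted p = 0.859).

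In the Z-disc and M-band list 22 of 31 measured genes were lower (71.0%, against 54.7% of all genes), with a median difference of -0.10. At an unadjusted p under 0.05, 3 were lower (9.68%, against 3.39% of all genes). Xirp1, which encodes the actin-binding repeat protein Xin, differed by -0.57, and its values ran from 8.11 to 9.42 in wild types and from 7.77 to 8.33 in knockouts. The difference was -0.31 without wild type 3, its highest array. Nebl, a short relative of nebulin, differed by -0.36, with means of 4.45 in wild types and 4.09 in knockouts. Both Nebl means lay below the array medians of 4.61 to 4.72, and its difference was -0.26 with its clusters averaged. Mypn, the gene of the Z-disc protein myopalladin, differed by -0.20. The limma adjusted p was 0.861 for each of these 3 genes. In the list of costamere, cytolinker and nuclear envelope genes 20 of 29 measured genes were lower (69.0%, against 54.7% of all genes), with a median difference of -0.07. Sorbs2 and Parvb were the 2 lower at an unadjusted p under 0.05 (6.9%, against 3.39% of all genes).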

How the data were processed

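Total RNA of 8 gastrocnemius muscles, 1 per mouse, was measured on Affymetrix arrays. The authors deposited log2 values produced by RMA (background correction, quantile normalization, probe summary), per the submitters' processing notes, with Affymetrix Expression Console as the software; its settings are not given in the sources used here. RMA compresses differences of dim transcripts. Array medians were 4.61 to 4.72. Of 35556 transcript clusters 21789 carried a single symbol, which gave 19938 genes.

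Genotypes were compared in limma 3.58.1 (R 4.3.3, lmFit, then eBayes), adjusted by Benjamini-Hochberg over all genes. The fit was also run on simulated data, whose added shifts were larger than the difference of any member. That run therefore does not show how often differences of the members' size would be found. With 4 against 4 arrays an exact permutation test cannot go below p = 0.0286. The closing section gives the alternatives. Members and lists were chosen with earlier results of these data known. All members are named; every array is given for members with an unadjusted p under 0.05, no overlap, the 5 widest differences or the highest level of their role. Other lists contribute up to 4 genes per direction at an unadjusted p under 0.05. Plots used matplotlib 3.10.9 (Python 3.11.15).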

Additional observations from a re-analysis of the deposited data

Results flagged for a closer look

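Of the 76 groups of 4 animals examined (2 genotypes of each of 38 named genes), 1 held an animal far from the rest of its group, and chance gives about 1 in 20. Wild type 1 had an Fhl1 value of 10.85, while the other wild types lay between 11.46 and 11.48.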

How the results depend on the processing

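In the 20 alternatives run for each member, 0 members passed a limma adjusted p under 0.05, and none of the other pathway genes did. Of the 32 members 17 kept the sign of their difference throughout and 15 changed it at least once. The number of members lower at an unadjusted p under 0.05 was 1 (3.12%, against 3.39% of all genes). It became 2 (6.25%) with the replicate block and 2 with the slow-fibre covariate, Vcl and Fhl1 in each case, against 3.74% and 3.91% of all genes. Leaving out 1 array gave 1 to 3: there were 3 without wild type 1 (9.38%, against 4.45% of all genes) or knockout 2 (9.38% against 2.76%), and 2 without wild type 2 (6.25% against 4.19%). Members without overlap numbered 2 to 4 with 1 array left out, and 4 without knockout 2. The share of all genes without overlap was not computed with an array left out. These counts are therefore not read as a result about the members. The members' median difference, -0.03, was 0.0005 with cyclic loess. The animals' numbers are not known to pair them: deviations of same-numbered animals correlated at 0.09, 0.07, 0.22 and -0.10. With the replicate block Nebl (unadjusted limma p 0.0531) and Mypn (0.0603) were no longer under 0.05, while Xirp1 went from 0.0316 to 0.00663. Of the other pathway genes 4 were lower at an unadjusted p under 0.05 with the block, against 5 without it. The block left 0 of 19938 genes past the adjusted threshold, against 3 without it, with Kat2a at 0.113.

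The following differences took the opposite sign, and the cause was not tested; all but that of Actn2, -0.22, were under 0.1 in size. With quantile normalization Myoz3 was 0.0046, Dst 0.0066 and Tln1 0.0332. With median centring Tcap was -0.0094. With cyclic loess Ttn was 0.0055, Neb 0.0039, Nrap 0.0194, Myoz3 0.0044, Dst 0.0307 and Tln1 0.0279. With array weights Synm was -0.0041 and Tln1 0.0157. Without wild type 2 and knockout 4 together, Nrap was 0.029, Obsl1 -0.018, Actn2 0.0035, Synm -0.0068 and Tln1 0.0206. With 1 array left out the differences ranged from -0.0278 to 0.0046 (Ttn), -0.0923 to 0.0339 (Nrap), -0.0031 to 0.095 (Obsl1), -0.3968 to 0.0325 (Actn2), -0.0148 to 0.048 (Myot), -0.0269 to 0.051 (Tcap), -0.0689 to 0.0043 (Myoz1), -0.1078 to 0.0389 (Myoz3), -0.0033 to 0.0634 (Pdlim5), -0.0397 to 0.0982 (Synm), -0.0257 to 0.0077 (Dst), -0.04 to 0.0115 (Tln1), -0.0741 to 0.1146 (Tln2) and -0.0968 to 0.0074 (Parva).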
